A study of Mus musculus with 6 samples.

Results

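The BCL2 family decides whether the outer mitochondrial membrane is opened during apoptosis. Its members were looked up by symbol in the deposited expression table of mouse blastocysts, and all 10 were found among its 55774 genes. They fall into 3 classes, the anti-apoptotic *Bcl2l1* and *Mcl1*, the effectors *Bax*, *Bak1* and *Bok*, and the BH3-only genes *Bcl2l11*, *Bid*, *Bad*, *Bbc3* and *Pmaip1*. The blastocysts were wild type and came from ICR females. They had been cultured from the two-cell stage in CZB medium, with extracellular vesicles isolated from the Fallopian tube fluid of women with endometriosis (oEV-EMT) or of women without it (oEV-ctrl). The sample labels give uterine fibroids as the condition of the control donors, whereas the methods of the study give cervical intraepithelial neoplasia. Each of the 6 libraries, 3 per group, was made from a pool of 10 blastocysts, and no library came from embryos cultured without vesicles. The labels do not say whether the pools of a group came from separate cultures, and p-values then measure the spread between these pools alone.

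In a healthy cell, the anti-apoptotic proteins hold the effectors and the activating BH3-only proteins in check. BH3-only proteins are switched on by stress, by loss of growth factors or by death receptors. They then act by displacing the effectors from the anti-apoptotic proteins or by activating the effectors directly. BAX and BAK1 then form pores, cytochrome c leaves the mitochondria, and the apoptosome activates the caspases. In the mouse blastocyst, apoptosis normally removes a small share of cells, chiefly in the inner cell mass.

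What the classes share is the BH3 helix, which in the BH3-only proteins is the sole BCL2 homology domain. Its core runs from a leucine to a small residue followed by aspartate. The coding stretch around this core is shown for 9 members, since the 3 classes have the core in common. It was read from the longest complete coding sequence of each gene in GENCODE M21 (GRCm38), 5′ to 3′ on the coding strand, and the capitals mark the codon of the leucine and the codons of the small residue and the aspartate.
Bcl2l1: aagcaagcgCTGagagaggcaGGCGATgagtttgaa
Mcl1: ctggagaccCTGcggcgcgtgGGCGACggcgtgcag
Bax: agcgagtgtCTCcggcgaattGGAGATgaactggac
Bak1: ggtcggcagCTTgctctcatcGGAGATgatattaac
Bok: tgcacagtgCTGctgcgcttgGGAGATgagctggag
Bcl2l11: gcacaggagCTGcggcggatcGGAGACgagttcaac
Bid: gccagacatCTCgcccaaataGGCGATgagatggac
Bad: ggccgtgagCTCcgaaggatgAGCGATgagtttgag
Bbc3: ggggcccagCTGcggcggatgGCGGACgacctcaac
These exonic stretches lie at chr2:152829697-152829732 for *Bcl2l1* (exon 2 of 3), chr3:95659427-95659462 for *Mcl1* (exon 1 of 3), chr7:45465997-45466032 for *Bax* (exon 3 of 6), chr17:27022531-27022566 for *Bak1* (exon 4 of 6), chr1:93686648-93689170 for *Bok* (exons 2 and 3 of 5), chr2:128147141-128147176 for *Bcl2l11* (exon 3 of 4), chr6:120897289-120897324 for *Bid* (exon 4 of 6), chr19:6950783-6950818 for *Bad* (exon 3 of 4) and chr7:16313764-16313799 for *Bbc3* (exon 3 of 4). The genes *Bcl2l1*, *Bax*, *Bak1* and *Bid* are on the minus strand and the others on the plus strand. In all 9 the last capital codon is for aspartate. The codon before it is for glycine in every member shown except *Bad*, where it is AGC for serine, and *Bbc3*, where it is GCG for alanine. The stretch of *Bok* crosses an intron.

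The deposited values are FPKM, which are counted per length of transcript and per depth of library and so can be compared between genes. The test covered the 11924 genes that reached 1 FPKM in 3 or more libraries. It was run with limma on log2(FPKM + 1), a scale that understates the fold changes of low genes. To be called, a gene needed an adjusted p of 0.05 or less together with a log2 fold change of 1 or more in either direction. The median log2 fold change of these genes was 0.17, higher in oEV-EMT, and a relative fold change is a fold change minus this median. Read totals are not given. From the steps between low values, the depth relative to oEV-ctrl 3 ranged from 0.547 in oEV-ctrl 1 to 1.14 in oEV-EMT 1. Mitochondrially encoded genes held from 3.93% to 4.84% of the FPKM in oEV-EMT and from 5.96% to 7.45% in oEV-ctrl. One unannotated entry held from 15.3% to 18.98% in oEV-EMT and from 19.7% to 31.5% in oEV-ctrl. Scaled to annotated nuclear genes, which leaves out the mitochondrially encoded genes and all unannotated entries, the median log2 fold change was 0.20. The part of the one entry alone in the median shift was not tested.
Trophectoderm and primitive endoderm markers were present and their summed FPKM overlapped between the groups. Among the latter, *Gata4* and *Sox7* were higher in oEV-EMT without overlap, with log2 fold changes of 0.82 and 0.52. The others overlapped, with 0.95 for *Sox17*, 0.325 for *Lama1*, 0.08 for *Pdgfra*, -0.07 for *Col4a1* and -0.19 for *Gata6*. The trophectoderm markers all overlapped, with log2 fold changes from -0.39 for *Eomes* to 0.22 for *Tead4*. The 7 epiblast markers were all above the filter. Their sum was 318, 223 and 192 FPKM in oEV-EMT and 90.7, 97.9 and 142 in oEV-ctrl, without overlap. The largest part of each oEV-EMT sum was *Utf1*, with 173, 87.4 and 86.5 FPKM against 33.8, 19.97 and 40.1. *Utf1*, *Nanog*, *Fgf4* and *Pou5f1* were higher in oEV-EMT without overlap, with log2 fold changes of 1.83, 1.11, 0.99 and 0.97. *Tdgf1*, *Klf2* and *Sox2* overlapped between the groups, with 0.32, 0.07 and -0.32. Of the 6 cumulus cell markers, 0 reached the filter, and *Ptx3*, *Fshr* and *Cyp19a1* were listed at 0 in every library. Of the 6 oocyte markers, *Zp2* and *Zp3* reached it, and the sum was from 3.86 to 6.93 FPKM in oEV-EMT and from 2.35 to 3.31 in oEV-ctrl. *Zp2* overlapped between the groups. *Zp3* reached the filter through its oEV-EMT values alone and so could not overlap. Of the 3 blood markers, *Hbb-bs* and *Ptprc* were listed at 0 throughout. The part of the epiblast, endoderm and oocyte markers in the results below was not tested. In pooled embryos, fewer cells of a type and less RNA per cell cannot be told apart.

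*Bax* was by far the most abundant member, and its lowest value over the 6 libraries, 44.9 FPKM, exceeded the highest of *Mcl1*, 31.1. Next in mean level were *Mcl1* with 22.8 FPKM, *Bad* with 16.9 and *Bok* with 15.9, whose ranges over the libraries overlapped. *Pmaip1* with 5.53 FPKM, *Bid* with 5.03 and *Bcl2l1* with 4.29 formed a lower tier and overlapped with one another too, and *Bcl2l11* followed with 1.21. *Bak1* and *Bbc3*, with mean levels of 0.317 and 0.277 FPKM, stayed below 1 in every library and were not tested. So 8 of the 10 members passed the filter. *Bcl2l11* passed it through its 3 oEV-EMT values alone, and a gene that enters in this way must differ between the groups.

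**Figure D1:**
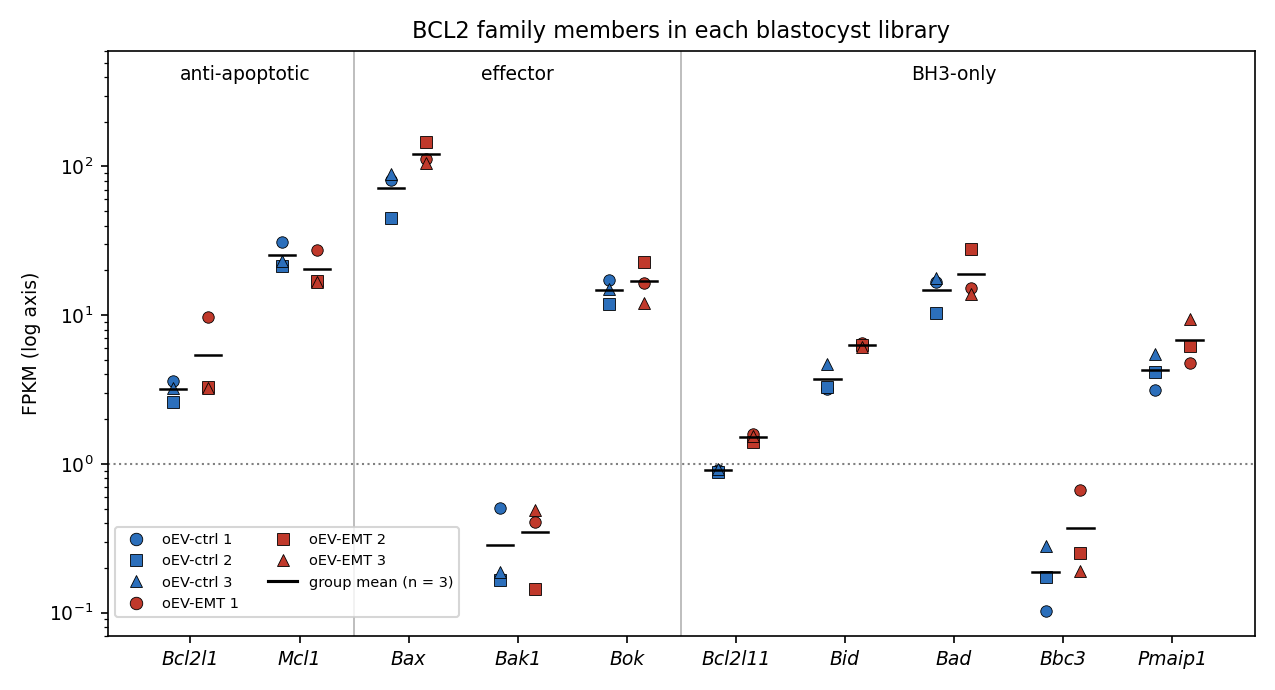
FPKM of each member in each library on a log axis, with oEV-ctrl in blue and oEV-EMT in red, one symbol per replicate and a bar at the mean of 3 libraries. The dotted line marks 1 FPKM. *Bax* lies from 44.9 to 146 FPKM and *Bak1* and *Bbc3* lie below 1, and the red points of *Bax*, *Bcl2l11* and *Bid* are all above the blue ones.

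Over all tested genes, 0% were called (0 of 11924, limma with Benjamini-Hochberg adjustment), and 0 of the 8 tested members were. With unadjusted p-values of 0.05 or less, 2 of the 8 were higher in oEV-EMT and 0 lower, against 12.8% and 2.55% of all tested genes. The groups did not overlap in 3 of the 8, *Bax*, *Bid* and *Bcl2l11*, each higher in oEV-EMT, against 22.4% of all tested genes in either direction, 18.1% higher and 4.34% lower. This split was 9.85% higher and 10.3% lower with median-of-ratios scaling, under which the same 3 members stayed apart. Of these 3, *Bcl2l11* could not have overlapped, given how it passed the filter. For 3 libraries against 3, an exact two-sided permutation test cannot give a p below 0.1, and that is its value for each gene without overlap.

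*Mcl1* (ENSMUSG00000038612, chr3:95658788-95663176) encodes the short-lived anti-apoptotic protein that early embryos cannot do without. It had 27.4, 16.9 and 16.7 FPKM in oEV-EMT and 31.1, 21.6 and 23.0 in oEV-ctrl. The lower oEV-EMT pair lay below every control, while oEV-EMT 1 lay among them, so the groups overlapped. *Mcl1* was the only one of the 10 members with a negative log2 fold change, -0.32 (standard error 0.26, 95% interval -0.89 to 0.25, adjusted p = 0.579 from limma). Relative to all genes this was -0.49, and between -0.53 and -0.46 under 4 other scalings between libraries. With one library left out, the log2 fold change before that subtraction ranged from -0.16 without oEV-ctrl 1 to -0.54 without oEV-EMT 1. It was -0.21 without oEV-EMT 2 and -0.20 without oEV-EMT 3. All oEV-EMT values lay below all controls without oEV-EMT 1 and in no other of these fits. Without oEV-EMT 1, 12.5% of all tested genes lay below in the same way.

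*Bcl2l1* (ENSMUSG00000007659, chr2:152780668-152831728) encodes BCL-XL, which guards the mitochondrial membrane beside MCL1. It had 9.71, 3.28 and 3.26 FPKM in oEV-EMT and 3.64, 2.61 and 3.26 in oEV-ctrl. One library, oEV-EMT 1, stood far above all others, and the remaining 5 mixed within a narrow band. This gave a log2 fold change of 0.48 (95% interval -0.29 to 1.26, adjusted p = 0.531 from limma), and it was 0.04 without oEV-EMT 1. The same library held the highest *Trp53* value. Its correlation with any other library over the tested genes did not exceed 0.965, while each other library reached at least 0.973 with its closest.

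*Bax* (ENSMUSG00000003873, chr7:45461697-45466898) encodes the effector that moves from the cytosol to the mitochondria on activation. It had 113, 146 and 105 FPKM in oEV-EMT and 80.9, 44.9 and 88.7 in oEV-ctrl. Every oEV-EMT library was above every control, with oEV-EMT 2 the highest and oEV-ctrl 2 the lowest. The means were 121 ± 21.6 and 71.5 ± 23.4 FPKM (SD, n = 3 libraries each). The log2 fold change was 0.80 (standard error 0.27, 95% interval 0.19 to 1.41), the largest of the members, or 0.63 relative to all genes. The unadjusted p-value was 0.0149 and the adjusted one 0.222 (limma), so the gene was not called. Without oEV-ctrl 2 the fold change was 0.50, and the separation of the groups held under 4 of 4 other scalings. The annotated gene *Gm45808* overlaps *Bax* on the same strand and holds 8.51% of its 50-base stretches. With at most 0.251 FPKM it was close to 0 beside *Bax*.
The promoter of *Bax* is shown because it was the one of 15 promoter windows, of 9 members, with a match to the p53 half-site. The sequence is the 250 bases before the transcription start, from RefSeq on GRCm38.p6, chr7:45466899-45467148, minus strand, with the half-site in capitals.
Bax: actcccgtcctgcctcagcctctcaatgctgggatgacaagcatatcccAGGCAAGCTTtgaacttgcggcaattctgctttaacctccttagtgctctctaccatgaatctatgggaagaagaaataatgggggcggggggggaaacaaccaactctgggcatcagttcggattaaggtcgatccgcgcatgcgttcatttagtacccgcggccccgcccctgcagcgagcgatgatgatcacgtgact
The pattern of the half-site is its own reverse complement, so that a search of one strand covers both. The search covered windows of 300 bases, the 250 before the start and the next 50. Of all 32851 promoter windows of this length, 8.36% held one. A pair of half-sites with a gap of at most 13 bases was in 0.0731% of all windows and in 0 of those of the members. A match is a description of letters and not a site of binding.

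*Bok* (ENSMUSG00000026278, chr1:93685660-93695764) encodes an effector found mostly at the endoplasmic reticulum. It had 16.4, 22.7 and 12.1 FPKM in oEV-EMT and 17.3, 11.98 and 14.96 in oEV-ctrl. The groups overlapped over most of their range. The log2 fold change of 0.17 (standard error 0.26, 95% interval -0.42 to 0.75, adjusted p = 0.789 from limma) equalled that of the median gene, and it was -0.02 with median-of-ratios and -0.08 with upper quartile scaling. *Bak1* (ENSMUSG00000057789, chr17:27019810-27029009), which encodes the effector resident at the mitochondria, had 0.406, 0.144 and 0.493 FPKM in oEV-EMT and 0.503, 0.166 and 0.188 in oEV-ctrl. Both groups held high and low libraries. *Ggnbp1*, on the opposite strand and listed under 2 identifiers, spans the gene. The more abundant entry shares 11.9% of the *Bak1* stretches. With from 3.27 to 6.75 FPKM it was far above *Bak1*, and the library protocol names no strand selection, so reads of this pair may be split between them. With *Bak1* so low, *Bax* held from 86.5% to 89.3% of the summed FPKM of the effectors in oEV-EMT and from 78.7% to 85.4% in oEV-ctrl.

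*Bid* (ENSMUSG00000004446, chr6:120891930-120916853) encodes the BH3-only protein that caspase-8 cleaves, which ties the death receptors to the mitochondria. It had 6.55, 6.35 and 6.09 FPKM in oEV-EMT and 3.17, 3.30 and 4.69 in oEV-ctrl. The oEV-EMT values lay within a narrow band above all controls, of which oEV-ctrl 3 came nearest. The means were 6.33 ± 0.227 and 3.72 ± 0.844 FPKM (SD, n = 3 each). On the log2 scale the difference was 0.65 (standard error 0.22, 95% interval 0.16 to 1.14), or 0.48 relative to all genes, with an unadjusted p-value of 0.0143 and an adjusted one of 0.222 (limma). With each library left out in turn it stayed between 0.57 and 0.79. *Bcl2l13*, another BCL2 family gene, overlaps *Bid* on the opposite strand over 913 bases, and 16.4% of the *Bid* stretches are shared with it. *Bcl2l13* had 6.11, 4.20 and 4.08 FPKM in oEV-EMT and 5.97, 4.06 and 4.59 in oEV-ctrl, with overlap, and thus did not follow the pattern of *Bid*.

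*Bcl2l11* (ENSMUSG00000027381, chr2:128126038-128162547) encodes BIM, which binds all anti-apoptotic members and activates the effectors. It had 1.58, 1.41 and 1.54 FPKM in oEV-EMT and 0.915, 0.877 and 0.923 in oEV-ctrl. Both groups were tight, with all controls below the filter of 1 FPKM and all oEV-EMT values above it. As the gene was tested for its oEV-EMT values alone, the groups could not have overlapped. Its fold change was 0.40 on the log2 scale (95% interval -0.01 to 0.80, adjusted p = 0.335 from limma), or 0.23 relative to all genes. A pseudocount of 0.1 in place of 1 gave 0.68.
*Pmaip1* (ENSMUSG00000024521) encodes NOXA, a p53-induced protein that binds MCL1. It had 4.77, 6.18 and 9.49 FPKM in oEV-EMT and 3.12, 4.15 and 5.47 in oEV-ctrl. Only oEV-EMT 1 fell below the highest control, oEV-ctrl 3. On the log2 scale the difference was 0.55 (standard error 0.28, 95% interval -0.07 to 1.18, adjusted p = 0.375 from limma), and with one library left out it ranged from 0.32 without oEV-EMT 3 to 0.75 without oEV-EMT 1. The groups did not overlap without oEV-EMT 1 or without oEV-ctrl 3, and overlapped without any of the other 4. Of all tested genes, 27.2% lay above without overlap in the fit without oEV-EMT 1 and 28% in that without oEV-ctrl 3.

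*Bad* (ENSMUSG00000024959, chr19:6941861-6951899) encodes the BH3-only protein that survival kinases hold phosphorylated in the cytosol. It had 15.2, 27.8 and 13.8 FPKM in oEV-EMT and 16.6, 10.3 and 17.7 in oEV-ctrl. Apart from a high oEV-EMT 2 and a low oEV-ctrl 2 the values were alike, and without oEV-EMT 2 the log2 fold change went from 0.30 to -0.00262 (adjusted p = 0.673 with all libraries, limma). *Gpr137*, on the opposite strand, shares 17.2% of the *Bad* stretches. It was also highest in oEV-EMT 2, with 1.40 FPKM. *Bbc3* (ENSMUSG00000002083, chr7:16308393-16318205) encodes PUMA, a potent p53-induced BH3-only protein. It had 0.664, 0.252 and 0.189 FPKM in oEV-EMT and 0.103, 0.174 and 0.281 in oEV-ctrl. The highest value was again in oEV-EMT 1, and the other libraries of both groups mixed.

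**Figure D2:**
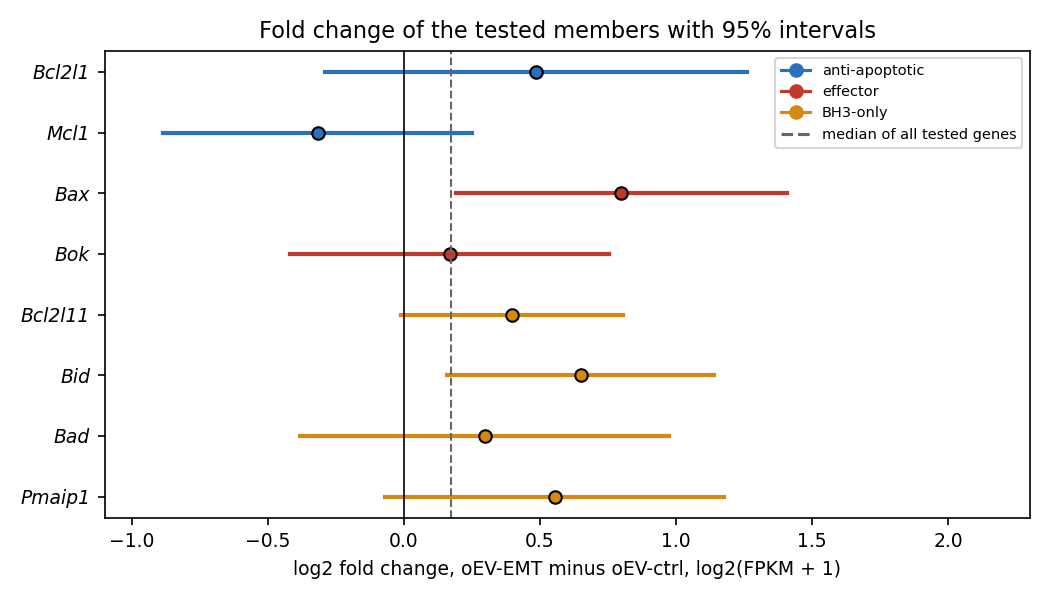
Log2 fold change of the 8 tested members, oEV-EMT minus oEV-ctrl, on log2(FPKM + 1), with 95% intervals from limma and colours for the 3 classes. The dashed line marks the median of all tested genes, 0.17. The intervals of *Bax* and *Bid* exclude 0, the interval of *Bax* alone lies above the dashed line, and *Mcl1* alone has a negative estimate.

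By class, the summed FPKM of the effectors was 129, 169 and 118 in oEV-EMT and 98.7, 57.0 and 104 in oEV-ctrl, without overlap, and it was carried by *Bax*. The BH3-only genes summed to 28.7, 42.0 and 31.1 FPKM in oEV-EMT and 23.9, 18.8 and 29.1 in oEV-ctrl, and the anti-apoptotic genes to 37.1, 20.2 and 19.9 against 34.7, 24.2 and 26.3. Both of these sums overlapped between the groups. Over all members of a class, tested or not, the median relative log2 fold change was -0.09 for the 2 anti-apoptotic genes, -0.00370 for the 3 effectors and 0.23 for the 5 BH3-only genes. The first median hides genes that went apart, *Bcl2l1* at 0.31 and *Mcl1* at -0.49. With one library left out, this median ranged from -0.39 without oEV-EMT 1 to 0.09 without oEV-EMT 2. The second one is that of *Bok*, between *Bax* and *Bak1*, and ranged from -0.12 without oEV-ctrl 2 to 0.17 without oEV-EMT 3. The third one is that of *Bcl2l11*, the gene that passed the filter through oEV-EMT alone, and a pseudocount of 0.1 moved the median of its class to 0.44. The same median over all tested genes is 0 by construction, and the medians of classes this small were not tested.

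A ratio of 2 genes within a library does not depend on the scaling between libraries, and *Mcl1*, as the more abundant anti-apoptotic gene, was taken as the common denominator. The ratio of *Bax* to *Mcl1* was 4.11, 8.64 and 6.31 in oEV-EMT and 2.60, 2.08 and 3.85 in oEV-ctrl. Every oEV-EMT library thus held more *Bax* per *Mcl1* than any control, although oEV-EMT 1 exceeded oEV-ctrl 3 by little. For *Bid* the ratio was 0.239, 0.377 and 0.365 against 0.102, 0.153 and 0.204, again without overlap. The ratios of *Bcl2l11* and *Bcl2l1* to *Mcl1* did not overlap either. Of the 7 other tested members 4 thus lay above, 0 below and 3 overlapped, and the 4 include *Bcl2l11*, which the filter admitted for its oEV-EMT values. Among all tested genes, 27.7% had a ratio to *Mcl1* that lay above without overlap and 0.839% one that lay below, since *Mcl1* itself was on the low side in oEV-EMT.
Against *Bcl2l1* the picture differed. The ratio of *Bax* to *Bcl2l1* was 11.6, 44.4 and 32.3 in oEV-EMT and 22.2, 17.2 and 27.2 in oEV-ctrl. The high *Bcl2l1* of oEV-EMT 1 put that library below all controls, while the other oEV-EMT pair lay above them. The summed effectors per summed anti-apoptotic genes were 3.49, 8.37 and 5.91 in oEV-EMT and 2.85, 2.36 and 3.95 in oEV-ctrl, and the same oEV-EMT 1 made these overlap.

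**Figure D3:**
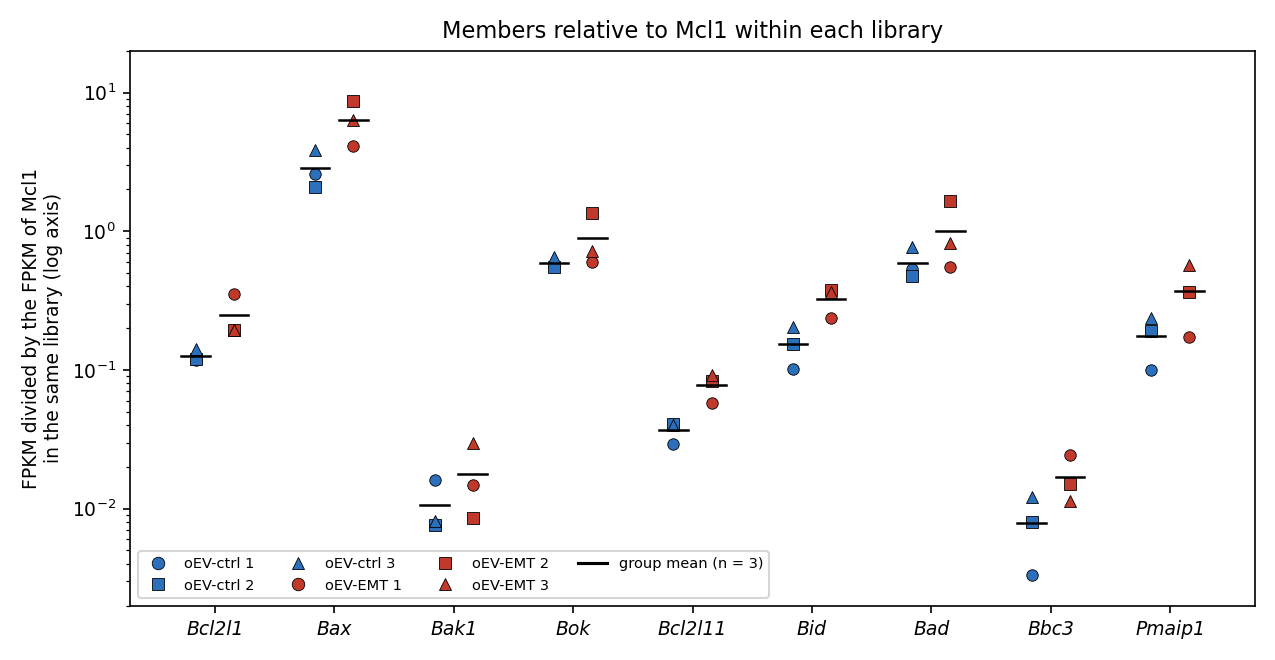
FPKM of each of the other 9 members divided by that of *Mcl1* in the same library, on a log axis, with oEV-ctrl in blue, oEV-EMT in red and a bar at the mean of 3 libraries. The red points of *Bcl2l1*, *Bax*, *Bcl2l11* and *Bid* lie above the blue ones, and those of *Bax* range from 4.11 to 8.64 against 2.08 to 3.85.

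Of 15 other BCL2 family genes, 6 passed the filter. Named here after their values were seen, *Bnip3*, of mitophagy and hypoxia, had a mean of 420.2 FPKM, above *Bax*, while *Bcl2*, the founding anti-apoptotic gene, reached at most 0.0726 FPKM in any library. Of the 6, 0 were called, and 1, *Bcl2l12*, lay higher in oEV-EMT without overlap, against 18.1% of all tested genes. *Bcl2l12* (ENSMUSG00000003190, chr7:44991222-44998712), an atypical member, had 15.3, 10.5 and 11.0 FPKM in oEV-EMT and 4.41, 5.45 and 6.93 in oEV-ctrl. No control came near the lowest oEV-EMT value, and the difference was 1.01 on the log2 scale (standard error 0.24, adjusted p = 0.152 from limma). *Bcl2l12* shares 1.90% of its stretches with *Irf3* on the opposite strand, which had 14.0, 13.1 and 10.4 FPKM in oEV-EMT and 9.28, 7.05 and 7.31 in oEV-ctrl and also did not overlap between the groups. A further 22.8% is shared with the antisense gene *Gm15545*, at 1.17 FPKM or less. *Bcl2l12* was the 1 gene of the 6 with an unadjusted p-value of 0.05 or less (limma), against 12.8% higher and 2.55% lower of all tested genes. The median relative log2 fold change of the 6 was -0.03.

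Downstream of the family, 19 of 19 genes of cytochrome c release, the apoptosome and caspase inhibition were tested and 0 were called. Unadjusted p-values of 0.05 or less (limma) were found for 2 higher and 1 lower, against 12.8% and 2.55% of all tested genes. Without overlap, 3 lay above and 1 below, against 18.1% and 4.34% of all tested genes. The median relative log2 fold change was -0.02. *Birc5*, or survivin, an inhibitor of apoptosis that also serves in mitosis, had 491, 494 and 580 FPKM against 317, 404 and 410 (log2 fold change 0.47, adjusted p = 0.276 from limma). *Aifm1*, a flavoprotein of the intermembrane space, had 31.9, 32.7 and 35.7 FPKM against 30.5, 31.6 and 30.2, barely without overlap, and a log2 fold change of 0.12 (adjusted p = 0.799 from limma), below that of the median gene.
*Cycs*, which encodes cytochrome c itself, was the gene that lay below, with 204, 268 and 315 FPKM in oEV-EMT and 411, 383 and 328 in oEV-ctrl. The difference on the log2 scale was -0.52 (95% interval -0.99 to -0.05, adjusted p = 0.279 from limma), and oEV-EMT 3 and oEV-ctrl 3 lay close together. The *Cycs* transcripts share 26.1% of their stretches with other annotated genes. The one that shares most, *Gm10053*, had 170, 209 and 247 FPKM against 300, 286 and 244, so that reads of the pair may be split between them.

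Among 20 regulators of BCL2 family genes and proteins, 19 were tested and 0 were called. Without overlap, 3 lay above and 0 below, against 18.1% and 4.34% of all tested genes. The median relative log2 fold change was -0.13. With unadjusted p-values of 0.05 or less (limma), 2 were higher and 0 lower, against 12.8% and 2.55% of all tested genes. *Trp53*, which encodes the p53 transcription factor, had 49.98, 25.9 and 22.7 FPKM in oEV-EMT and 10.3, 10.9 and 17.6 in oEV-ctrl (log2 fold change 1.23, adjusted p = 0.164 from limma). The highest value, in oEV-EMT 1, went with the highest *Bbc3* and *Bcl2l1* but with the lowest oEV-EMT value of *Pmaip1*. *Bax* was highest in oEV-EMT 2, and *Bbc3* was below 1 FPKM throughout. This match rests on 1 library and was not tested. *Tmbim6*, or BAX inhibitor 1, had 168, 150.6 and 143 FPKM against 92.8, 117 and 110 (log2 fold change 0.53, adjusted p = 0.240 from limma). *Ywhae*, a 14-3-3 protein of the kind that retains phosphorylated BAD, had 388, 325 and 339 FPKM against 232, 266 and 303 (log2 fold change 0.40, adjusted p = 0.348 from limma).

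**Figure D4:**
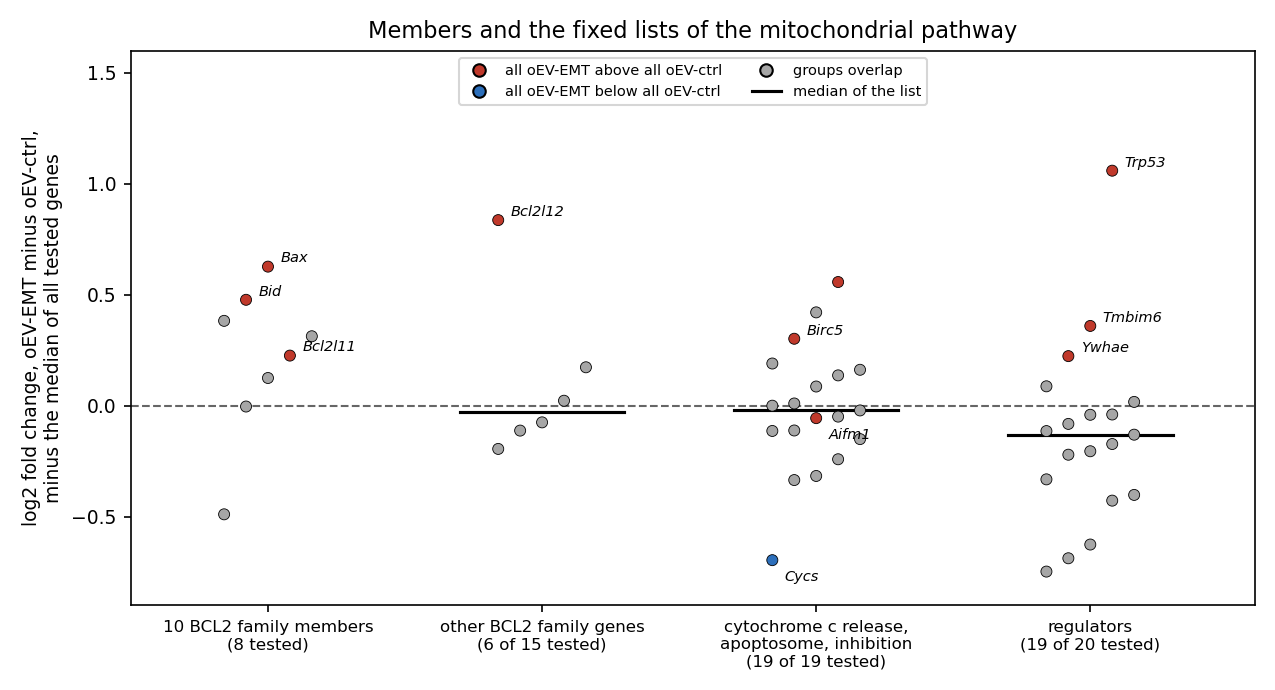
Log2 fold change relative to the median of all tested genes for the 8 tested members and for the tested genes of 3 lists, each point a gene. Red points have all oEV-EMT values above all controls, the blue point all below, and grey points overlap. The bars are the medians of the lists, -0.03, -0.02 and -0.13.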

How the data were processed

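RNA of 6 blastocyst pools was sequenced after oligo (dT) selection. After alignment, the authors ran StringTie for reference-based assembly and deposited one FPKM value per gene and library. The submitters' processing notes name StringTie and the build mm10, and the aligner is not given in the sources used here. TPM is the unit in the methods of the study, but the column sums, from 1.293e+06 to 1.552e+06, are unequal, which FPKM allow and TPM do not. Of 55774 genes, 287 were unannotated entries. Symbols and coordinates came from GENCODE M21, which matched 55141 identifiers, and promoters from RefSeq.

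The design expected normalized values, and limma 3.58.1 in R 4.3.3 was fitted to log2(FPKM + 1) over all 11924 genes with at least 1 FPKM in at least 3 libraries, with a trended and robust variance and Benjamini-Hochberg adjustment. The fit was tested on simulated data. The members and lists were chosen with earlier results of these data known. All 10 members were named, and from each list up to 4 genes without overlap between the groups, in order of p, and *Trp53*. Shared sequence was counted in identical 50-base stretches on either strand. For relative depth, the most frequent log2 ratio to oEV-ctrl 3 was taken, in bins of 0.02, among values below 0.3 FPKM. The depth is the inverse of this ratio after conversion from log2. Alternatives covered pseudocount, filter, scaling, variance model, library weights, replicate block, thresholds and each library left out. Figures were drawn with matplotlib 3.10.9. The sequence of *Pmaip1* and the values of 1 gene that the rule would name are not reported here.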

Additional observations from a re-analysis of the deposited data

How the results depend on the processing

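No member was called under any of the 17 alternative fits or 2 other thresholds (limma), and the adjusted p-value of *Bax* ranged from 0.0890 with library weights to 0.666 without a filter, that of *Bid* from 0.115 to 0.624. The number of all genes called was 0, but 104 with library weights, 21 with the replicate block, 22 at an adjusted p of at most 0.1, and from 0 to 16 with one library left out (4 without oEV-EMT 1, 1 without oEV-EMT 3 and 16 without oEV-ctrl 3). Whether the replicate numbers pair the libraries cannot be decided with 3 libraries per group. Deviations of equally numbered libraries correlated at 0.119, -0.0442 and 0.0388, and oEV-EMT 2 and oEV-EMT 3 correlated best with another number, at 0.0552 and 0.121. In this balanced design a replicate block leaves every fold change as it was by construction, so the equal values of the members are no check.

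The members without overlap numbered from 2 to 4 over the filters, scalings and left-out libraries. The number was 2 with a mean of at least 5 FPKM and without oEV-EMT 2 or oEV-EMT 3, where *Bcl2l11* was not tested. Without oEV-EMT 1 *Bcl2l11* was not tested either, and the count was 4, 3 higher and 1 lower. Of all genes, 18.1% lay above and 4.34% below without overlap, but with median-of-ratios scaling 9.85% lay above and 10.3% below. With the upper quartile these shares were 7.59% and 12.5%, and the lower genes outnumbered the higher ones under both. With one library left out, from 21.9% to 30.6% lay above and from 5.87% to 12.5% below. The log2 fold change of *Bok* turned to -0.0189 and -0.0832 under the median-of-ratios and the upper quartile scaling and ranged from -0.0497 to 0.379 with one library left out. That of *Bad* ranged from -0.00262 to 0.478 and that of *Bak1* from -0.00976 to 0.187 with one library left out, and *Bak1* had -0.00609 with library weights. Read totals are unknown, and no counting error could be given for any value.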
